A study of Mus musculus with 8 samples.

Results

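Cytosolic ribosomal protein genes encode the proteins of the ribosomes that translate nuclear-encoded mRNA. They were followed through crypts of the mouse intestine, with and without the histone H3 methyltransferase gene Setdb1. Genes were taken by symbol, as Rpl or Rps followed by a number with or without a final letter, together with Rplp0, Rplp1, Rplp2 and Rpsa. Symbols with -ps, which mark copies annotated as pseudogenes, and the Rps6k kinases were left out. The rule found 81 of 16958 genes with values, and 77 of them had a mean of at least 1 FPKM over 6 crypt libraries, 46 of the large and 31 of the small subunit. The other 4 (Rpl10l, Rpl32l, Rpl39l and Rpl3l) never passed 0.13 FPKM and were not among the 10862 genes tested.

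The 6 libraries came from C57BL/6 mice that the sample labels give as 8 weeks old. WT was the setdb1fl/fl genotype, with both alleles floxed, and the other 5, titled VEMD2, VEMD3, VEMD4, VEMD6 and VEMD8, were setdb1 iIEC-KO. Villin-CreERT2 mice, in which the Villin promoter of intestinal epithelium drives a recombinase that tamoxifen switches on, and WT littermates were given 800 mg/kg tamoxifen once by gavage, so the control had the drug and carries the floxed alleles too. Whether it also carries the recombinase is not in the labels. Cells other than epithelium would keep Setdb1. The labels do not say how many mice stand behind a library or what VEMD means. Because the gene table is titled as a series of days, the numbers may be days, but they serve here only as names. Each group is 1 library, so values carry no error, no difference was tested, and higher and lower describe these libraries alone. All ratios share the 1 WT library. The series' 2 stem cell samples, of Lgr5-EGFP-ires-CreERT2 mice, were not analysed here.

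A ribosome has a small subunit, which reads the mRNA, and a large subunit, which joins amino acids, and each holds 1 copy of nearly every ribosomal protein beside its rRNA. Cells therefore make these proteins in matched amounts, and they use a large part of their mRNA for it. Most of these mRNAs begin with a C followed by a run of C and T, the terminal oligopyrimidine (TOP) motif, through which mTORC1 and LARP1 control their translation and stability. In the crypt, ribosome production is a mark of the dividing stem and transit-amplifying cells.

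Some of these genes show a TOP motif at their annotated start, a property that the choice of genes did not use. RefSeq's promoter table for GRCm38.p6 held a window for 57 of the 77 genes. Windows of 30 bases are printed 5′ to 3′ on the strand of the gene, with the annotated first base of the transcript as the 16th, and capitals mark a run of C and T that holds that base and starts the mRNA with C and 4 further pyrimidines. The genes shown are some with the motif, and then Rps27l, Rpl10 and Rpl41, which had the smallest range over the libraries and have no such run in these windows.
Rps6, chr4:86857353-86857382, minus strand: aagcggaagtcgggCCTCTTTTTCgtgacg
Rps18, chr17:33955651-33955680, minus strand: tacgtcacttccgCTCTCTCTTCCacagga
Rpl28, chr7:4792950-4792979, plus strand: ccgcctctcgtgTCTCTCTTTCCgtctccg
Rplp2, chr7:141447636-141447665, plus strand: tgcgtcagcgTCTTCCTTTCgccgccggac
Rps10, chr17:27635230-27635259, minus strand: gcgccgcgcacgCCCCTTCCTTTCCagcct
Rpl15, chr14:18270972-18271001, minus strand: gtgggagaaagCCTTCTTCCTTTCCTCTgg
Rps15a, chr7:118116133-118116162, minus strand: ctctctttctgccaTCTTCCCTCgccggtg
Rps27l, chr9:66946071-66946100, plus strand: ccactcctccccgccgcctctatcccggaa
Rpl10, chrX:74270801-74270830, plus strand: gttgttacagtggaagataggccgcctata
Rpl41, chr10:128549154-128549183, minus strand: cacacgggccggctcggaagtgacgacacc
A C at the first base followed by C or T at the next 4 stood in 13 of the 57 genes, or 22.8%, counting a gene when any of its annotated starts had it. The share was 2.89% of 8804 tested genes and 3.01% of the 27025 genes with a window. A looser search, for a run of at least 5 C or T that holds a C and begins within 5 bases of the start, found 42.1% of the ribosomal protein genes, 26.2% of tested genes and 6760 of the 27025 genes with a window. Annotated starts can be a few bases off, and no match says only that these letters are not in the window. Over the whole 300-base window and both strands, CCGGAAG, a form of the site bound by ETS factors such as GABP, was in 42.1% of the ribosomal protein genes, 21.8% of tested genes and 9.93% of all genes with a window. In the same order the shares were 61.4%, 69.2% and 38.2% for GGGCGG, the GC box, 10.5%, 9.09% and 15.7% for TATAAA, and 8.77%, 5.66% and 3.19% for AAGATGGC, the core of the YY1 site.

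Whole libraries differed as follows. Setdb1 itself was at 9.42 FPKM in WT, 6.64, 7.03 and 5.49 in VEMD2 to VEMD4, 3.53 in VEMD6 and 4.95 in VEMD8, a value for the whole gene that does not show whether single exons were lost. Summed over all genes, FPKM came to 585501 in WT and between 481519 in VEMD6 and 566585 in VEMD2. FPKM are scaled for gene length and library size, and the depth behind them is unknown. The log2 ratio to WT, taken after 1 FPKM was added to both values, had a median over all genes tested of 0.09, 0.12 and 0.03 in VEMD2 to VEMD4, -0.23 in VEMD6 and -0.06 in VEMD8. Ratios in VEMD3 and VEMD6 are to be read against these shifts, and rescaled below means that the shift was taken off. Epithelial genes such as Epcam, at 1080.2 FPKM in WT and 699.5 to 904 in the knockouts, were high in all libraries. The 18 leukocyte markers summed to 20.4 to 56.4 FPKM and the 15 stromal ones to 2.98 to 10.2, with 1 to 3 and 1 to 8 of them at 0, depending on the library. Ptprc, which defines leukocytes, was at 1.41 to 2.80 FPKM, and Col1a1, a collagen of stroma, at 0.01 to 0.08.

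Ribosomal protein genes were among the most abundant in these crypts. Their median was 904 FPKM in WT, 821, 931 and 790.5 in VEMD2 to VEMD4, 414 in VEMD6 and 593 in VEMD8. WT, VEMD2, VEMD3 and VEMD4 lay close together, VEMD6 was lowest and VEMD8 stood between. Of the 100 genes with the highest mean, 31 were ribosomal protein genes, and all of the 77 but Rps15a had a mean of at least 100 FPKM. Together they took 12.8% of all FPKM in WT, 11.7%, 14.2% and 12.6% in VEMD2 to VEMD4, 7.10% in VEMD6 and 10.1% in VEMD8.

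**Figure D1:**
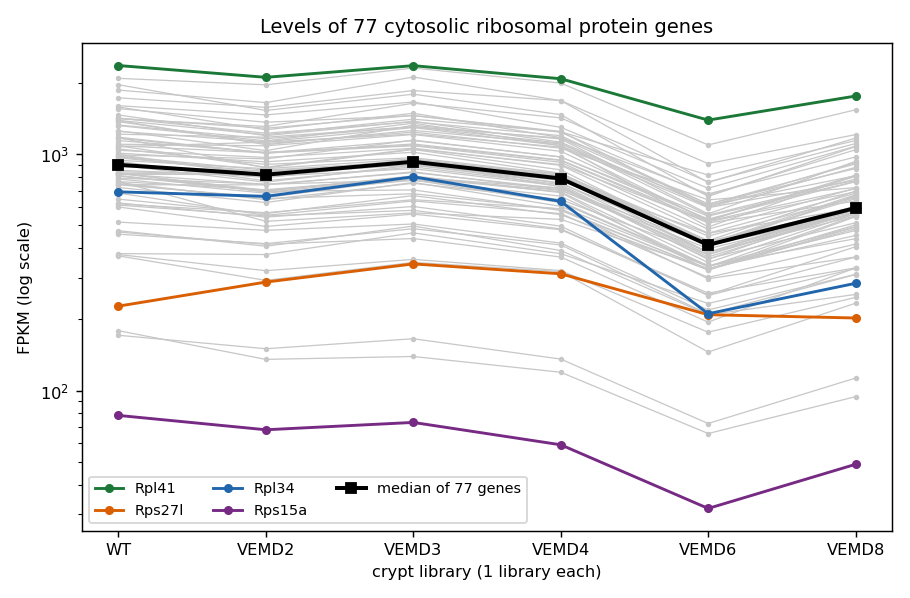
FPKM of 77 ribosomal protein genes in the 6 crypt libraries, on a log axis, with 1 grey line a gene. The black line, their median, runs from 904 in WT to 414 in VEMD6 and 593 in VEMD8, and Rps27l, in orange, lies above its WT level in VEMD2, VEMD3 and VEMD4.

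In VEMD6, all 77 genes were below WT, where 65.9% of all genes tested were, and their median log2 ratio was -1.19, or 43.8% of the WT level. As deposited, 63 of 77 were at least 2-fold lower, against 8.15% of all genes tested, and none was 2-fold higher, against 5.04%. The count depends on the scale. It was 22 after rescaling to the median gene (4.17% of all genes), 13 after rescaling to the same sum of FPKM (4.33%), and 47 on a scale set by other genes of at least 100 FPKM (5.28%). The members' median stayed between -0.91 and -1.04 on these 3 scales. At least 1.5-fold lower were 76 of 77, against 25% of all genes tested, and the exception was Rps27l. Nearest to the 2-fold line were Rpl38 at -1.01 and Rpl11 at -1.03 on the lower side, and Rps28 at -0.997, Rpl39 at -0.99 and Rpl7a at -0.98 just short of it. Other genes of at least 100 FPKM, 829 in number, had a median of -0.15 in VEMD6. In the same library the summed level of 18 enterocyte markers was 29222 FPKM, against 14272 in WT, and that of 25 proliferation genes 653, against 1178, and their part in the result was not tested.

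In VEMD8 all 77 genes were again below WT, where 55.3% of all genes tested were, with a median ratio of -0.60, or 65.8% of WT. Rescaled to the same sum of FPKM, 75 of 77 were below. Only 2, Rpl13 and Rpl34, were at least 2-fold lower, against 5.21% of all genes, and 41 were at least 1.5-fold lower, against 14.7%. None was 2-fold higher, where 4.36% of all genes were. VEMD8 was above VEMD6 for 76 of the 77, by a median of 0.54 on the log2 scale, and below VEMD4 for all 77. The order VEMD6 below VEMD8 below VEMD4 held for 76 genes and for 42.8% of all genes tested. VEMD6 was the lowest of the 6 libraries for 76 of 77 genes, where it was so for 47.3% of all genes.

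The other 3 knockout libraries differed little from WT in these genes. No ribosomal protein gene was 2-fold lower in VEMD2, VEMD3 or VEMD4, where 2.39%, 4.62% and 5.04% of all genes were, and none was 2-fold higher, where 2.44%, 6% and 7.1% were. Medians were -0.19 in VEMD2, -0.01 in VEMD3 and -0.25 in VEMD4, or 87.5%, 99.5% and 84.2% of WT. As deposited, 75, 40 and 75 genes were below WT in VEMD2, VEMD3 and VEMD4, against 41.1%, 39.8% and 47.7% of all genes. In VEMD3 the direction turned with the scale, since 64 genes were below WT after rescaling to the median gene and 8 after rescaling to the same sum of FPKM, where the median was 0.13. In VEMD4 the same sum left 53 below WT and in VEMD2 68. Between knockouts, VEMD3 was above VEMD2 and above VEMD4 for all 77 genes as deposited and for 76 after rescaling to the median gene. Of the 10862 genes tested, 6134 were higher in VEMD3 than in VEMD2 and 7353 higher in VEMD3 than in VEMD4, as deposited. WT was the highest library for 40 genes, or 51.9%, and VEMD3 for 37, or 48.1%, against 21.0% and 28.2% of all genes tested. None was 1.5-fold lower in all 5 knockouts, where 2.16% of all genes were, and none was 1.5-fold higher in all 5, where 1.77% were.

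**Figure D2:**
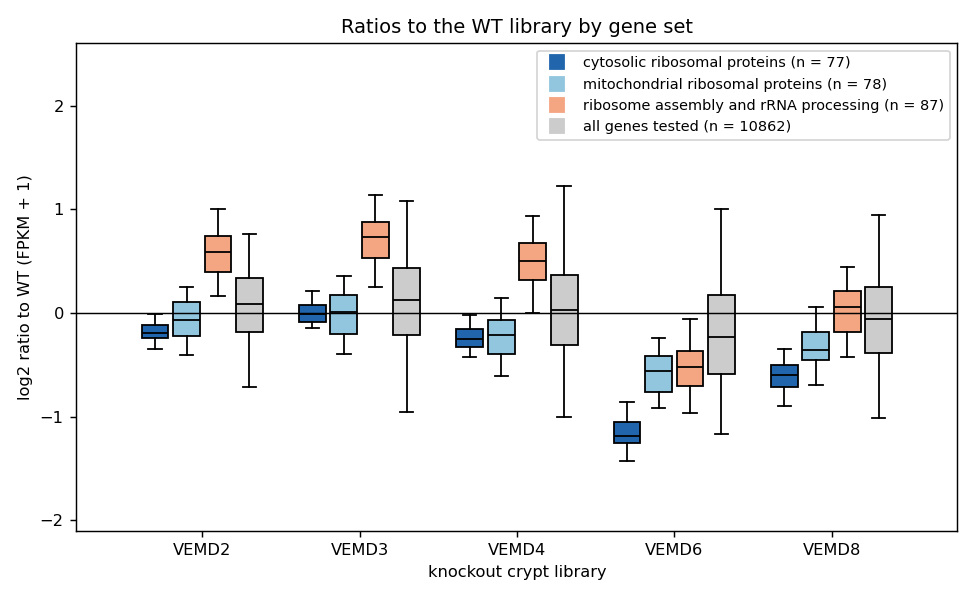
Log2 ratio to WT of the FPKM + 1, by knockout library, for cytosolic and mitochondrial ribosomal protein genes, ribosome assembly genes and all genes tested. Boxes span the quartiles with the median as a line, and whiskers the 5th to 95th percentile. The cytosolic set is the narrowest in every library and is lowest in VEMD6, at a median of -1.19.

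The ratios of the 77 genes lay close together in each library. The middle 50% of their ratios spanned 0.12, 0.16 and 0.17 on the log2 scale in VEMD2 to VEMD4, 0.20 in VEMD6 and 0.21 in VEMD8, where all genes spanned 0.52 to 0.76. Their order by level barely shifted, with Spearman's rho against WT from 0.963 in VEMD8 to 0.983 in VEMD2 over the 77 genes. These are rank correlations across genes that share their libraries, gene lengths and base composition, given as a description. The summed FPKM of the small subunit was 0.691 of that of the large subunit in WT and 0.667 to 0.687 in the knockouts. The large subunit's share of all FPKM was 7.60% in WT and 4.23% in VEMD6, and the small subunit's 5.25% and 2.87%. Median ratios in VEMD6 were -1.17 for the large and -1.22 for the small subunit, and in VEMD8 -0.58 and -0.68. The 77 genes lie on 19 chromosomes, with 14 on chromosome 7, and their genes are short, with a median span of 3175 bases against 22589 for all genes tested.

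Levels, which FPKM give per length and so allow to be compared between genes, ranged widely. Rpl41, a very short protein at the joint between the subunits, was highest, at 2378 FPKM in WT, 2119.9, 2375 and 2091 in VEMD2 to VEMD4, 1397 in VEMD6 and 1766 in VEMD8. Next was Rps2, which lies where mRNA enters the small subunit, at 2099 FPKM in WT, 1970.2, 2321 and 2004 in VEMD2 to VEMD4, 1097 in VEMD6 and 1544 in VEMD8. Rplp1, one of the acidic proteins of the stalk, was at 1872 FPKM in WT, 1657, 2127 and 1689 in VEMD2 to VEMD4, 914 in VEMD6 and 1213 in VEMD8. Rps12, on the head of the small subunit, was at 1736 FPKM in WT, 1581, 1863 and 1690.1 in VEMD2 to VEMD4, 761 in VEMD6 and 1172 in VEMD8. In each of these 4 genes VEMD6 was the lowest library, VEMD8 the next, and the other 4 lay above both. At the low end, Rps15a was at 78.5 FPKM in WT, 68.3, 73.3 and 59 in VEMD2 to VEMD4, 31.7 in VEMD6 and 48.7 in VEMD8. Rps20, another small-subunit protein, was at 179 FPKM in WT, 136, 139 and 119.6 in VEMD2 to VEMD4, 65.8 in VEMD6 and 94.3 in VEMD8. Rpl22, a large-subunit protein with the paralog Rpl22l1, was at 171 FPKM in WT, 150.4, 166 and 136 in VEMD2 to VEMD4, 72.5 in VEMD6 and 113 in VEMD8. In these 3 low genes too, VEMD6 was lowest and VEMD8 next. Such levels are uncertain, because RefSeq lists 318 symbols with -ps for 62 of the 81 genes that the rule found. Reads of near-identical copies can be lost or shared, depending on the authors' counting.

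By role, the stalk of the large subunit, which recruits the factors of translation, is built from Rplp0, Rplp1, Rplp2 and Rpl12. Rplp0 was at 1414 FPKM in WT, 1313, 1646 and 1428 in VEMD2 to VEMD4, 764 in VEMD6 and 1111 in VEMD8. Rplp2 was at 1389.8 FPKM in WT, 1099.6, 1264 and 1108 in VEMD2 to VEMD4, 608 in VEMD6 and 812 in VEMD8. Rpl12, at the base of the stalk, was at 1324 FPKM in WT, 1141, 1355 and 1090.5 in VEMD2 to VEMD4, 493 in VEMD6 and 814 in VEMD8. VEMD6 was below WT in all of these, with log2 ratios from -1.42 for Rpl12 to -0.89 for Rplp0, and -1.19 for Rplp2. Rpl5 and Rpl11 carry 5S rRNA into the large subunit and, when free of it, bind MDM2, the ligase that destroys p53. Rpl5 was at 610.1 FPKM in WT, 549, 579.6 and 484 in VEMD2 to VEMD4, 254 in VEMD6 and 407 in VEMD8. Rpl11 was at 1088 FPKM in WT, 1015, 1144 and 976 in VEMD2 to VEMD4, 532 in VEMD6 and 766 in VEMD8. They lay on either side of the middle 50% of the 77 in VEMD6, with ratios of -1.26 and -1.03 in VEMD6 and -0.58 and -0.50 in VEMD8.

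The tunnel through which the new protein leaves the large subunit is lined by Rpl4, Rpl17 and Rpl39 and ringed by proteins such as Rpl23a and Rpl35. Rpl4 was at 1104 FPKM in WT, 1087, 1214 and 1031 in VEMD2 to VEMD4, 526 in VEMD6 and 816 in VEMD8. Rpl39, whose gene is on the X chromosome, was at 647 FPKM in WT, 561, 669 and 556 in VEMD2 to VEMD4, 324 in VEMD6 and 493 in VEMD8. Rpl23a, which docks the signal recognition particle, was at 1972 FPKM in WT, 1535, 1799 and 1473 in VEMD2 to VEMD4, 664 in VEMD6 and 1079 in VEMD8. It had the lowest ratio in VEMD6 after Rpl34, at -1.57, and -0.87 in VEMD8. Over the 9 tested tunnel genes, ratios in VEMD6 ran from -1.57 to -0.86, the latter for Rpl19, with a median of -1.17. Rpl10 and Rpl24 join the large subunit last, in the cytoplasm. Rpl10, also on the X chromosome, was at 1393 FPKM in WT, 1212, 1409.8 and 1247 in VEMD2 to VEMD4, 818 in VEMD6 and 1144 in VEMD8. Rpl24 was at 744 FPKM in WT, 743, 844 and 706 in VEMD2 to VEMD4, 385 in VEMD6 and 549 in VEMD8. Rpl10 was less low than most in VEMD6, at -0.77, and in VEMD8, at -0.28. The 4 X-linked genes, Rpl10, Rpl36a, Rpl39 and Rps4x, had a median of -1.13 in VEMD6, against -1.19 over all 77.

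In the small subunit, Rps3 stands with Rps2 at the mRNA entry, and Rps15 and Rps23 reach the decoding centre. Rps3 was at 517 FPKM in WT, 477, 507 and 421 in VEMD2 to VEMD4, 219.6 in VEMD6 and 311 in VEMD8. Rps23 was at 1563 FPKM in WT, 1368, 1459 and 1241 in VEMD2 to VEMD4, 672 in VEMD6 and 1046 in VEMD8. Rps15 was at 1144 FPKM in WT, 1020.1, 1094 and 942 in VEMD2 to VEMD4, 512 in VEMD6 and 634 in VEMD8. Their ratios in VEMD6 were -1.23, -1.22 and -1.16. Rps6, the protein that S6 kinases phosphorylate when mTORC1 is active, was at 857 FPKM in WT, 807, 869.8 and 735 in VEMD2 to VEMD4, 359 in VEMD6 and 594 in VEMD8. Rps27a, made as a fusion with ubiquitin, was at 934 FPKM in WT, 774, 886 and 744 in VEMD2 to VEMD4, 368 in VEMD6 and 568 in VEMD8. Rpsa, also described as a laminin receptor, was at 825 FPKM in WT, 821, 952 and 816 in VEMD2 to VEMD4, 429 in VEMD6 and 589.5 in VEMD8. Rps6 and Rps27a were more than 2-fold lower in VEMD6, at -1.25 and -1.34, and Rpsa was at -0.94. Rps19, whose human counterpart is the gene most often mutated in Diamond-Blackfan anaemia, was at 904 FPKM in WT, 797, 929 and 729.5 in VEMD2 to VEMD4, 362 in VEMD6 and 514 in VEMD8. Its ratio was -1.32 in VEMD6 and -0.81 in VEMD8.

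Some genes stood apart from the rest. Rpl13 was at 1178 FPKM in WT, 876, 1049 and 860.2 in VEMD2 to VEMD4, 422 in VEMD6 and 571 in VEMD8. Its ratio was -1.48 in VEMD6 and -1.04 in VEMD8, and its range over the libraries was the third widest after Rpl34 and Rpl23a. Rps29, a zinc-binding protein of the small-subunit head, was at 768 FPKM in WT, 521, 565 and 531 in VEMD2 to VEMD4, 329 in VEMD6 and 454 in VEMD8. Rps29 and Rps20 were the lowest of the 77 in VEMD2, VEMD3 and VEMD4, except that Rpl13 lay between them in VEMD2. Their ratios in VEMD2, VEMD3 and VEMD4 were -0.56, -0.44 and -0.53 for Rps29 and -0.40, -0.36 and -0.58 for Rps20. Rpl28, which budding yeast lacks, was at 1377 FPKM in WT, 1111, 1242 and 1063 in VEMD2 to VEMD4, 642 in VEMD6 and 723 in VEMD8. It was nearly as low in VEMD8 as in VEMD6, with ratios of -0.93 and -1.10. On the other side, Rpl15 was at 380.2 FPKM in WT, 377, 465 and 379.7 in VEMD2 to VEMD4, 234 in VEMD6 and 329 in VEMD8. Next to Rps27l, it was the least low in both, at -0.70 in VEMD6 and -0.21 in VEMD8. Rpl41 was at -0.77 in VEMD6 and -0.43 in VEMD8. The 13 genes with a strict TOP motif had medians of -1.17 in VEMD6 and -0.68 in VEMD8 against -1.18 and -0.58 for the 44 others with a window. Rpl15, among the least low, and Rpl28, among the lowest in VEMD8, both have the motif, as their windows above show.

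**Figure D3:**
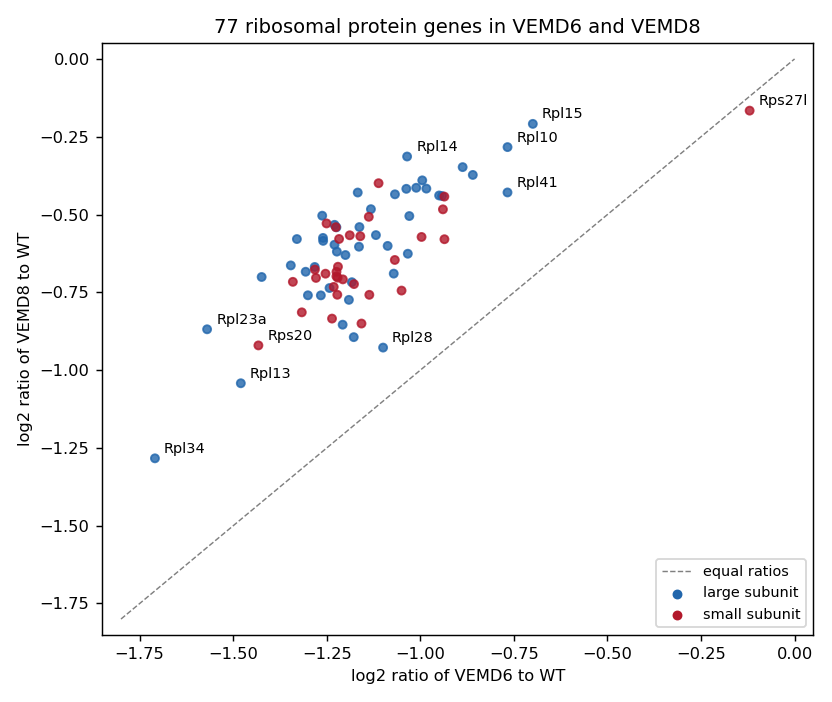
Log2 ratio to WT in VEMD6 (x axis) and VEMD8 (y axis) of 77 ribosomal protein genes, 1 point a gene, by subunit. All but Rps27l lie above the dashed line of equal ratios. Rpl34 lies lowest, at -1.71 and -1.28, and Rps27l highest, at -0.12 and -0.17.

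Rps27l had a course of its own. It encodes a second form of Rps27, which it resembles over 257 aligned bases with 77.4% identity, and it is known as a target of p53. The gene lies on chr9:66944624-66949522 of GRCm38. It was at 228 FPKM in WT, 288, 344 and 312 in VEMD2 to VEMD4, 209.5 in VEMD6 and 203 in VEMD8. VEMD2, VEMD3 and VEMD4 were above WT and VEMD6 and VEMD8 slightly below. In VEMD3 it was the 1 gene of the 77 past 1.5-fold as deposited, against 16.5% of all genes tested, and rescaled to the median gene it was at 0.47 there and no gene of the 77 was 1.5-fold higher. Its log2 ratios were 0.34, 0.59, 0.45, -0.12 and -0.17 in the same order. In VEMD6 the ratio became 0.11 after rescaling to the median gene and 0.16 with the same sum of FPKM, and in VEMD8 -0.10 and 0.08, so no direction can be given there. Rps27, the main form, was at 1055 FPKM in WT, 907, 968 and 824 in VEMD2 to VEMD4, 451 in VEMD6 and 656 in VEMD8. Its ratios were -0.22, -0.12, -0.36, -1.22 and -0.68. Rps27l departed from the median of the 77 by 0.53, 0.60, 0.70, 1.07 and 0.44 in the 5 libraries.

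Other genes of a list on the 5S RNP, MDM2 and p53 were high in the same 3 libraries. Of 25 tested, 15, 17 and 14 were 2-fold higher in VEMD2, VEMD3 and VEMD4, against 2.44%, 6% and 7.1% of all genes tested. In VEMD6 and VEMD8 1 each was, near the 5.04% and 4.36% of all genes. At least 2-fold lower were 1 in VEMD3, 2 in VEMD4 and 1 in VEMD6, against 4.62%, 5.04% and 8.15%. The list's median ratio was 1.17, 1.73 and 1.43 in VEMD2, VEMD3 and VEMD4. It was -0.10 in VEMD6, where the sign turned on the other scales, and 0.05 in VEMD8. Phlda3, an inhibitor of AKT and a p53 target, was at 0.27 FPKM in WT, 21.6, 48.2 and 33.8 in VEMD2 to VEMD4, 0.36 in VEMD6 and 0.12 in VEMD8. Plk2, a kinase and p53 target, was at 0.53 FPKM in WT, 11.9, 25.1 and 16.4 in VEMD2 to VEMD4, 0.46 in VEMD6 and 0.63 in VEMD8. Both were under 1 FPKM in WT, VEMD6 and VEMD8 and above 10 in the other 3. The part of p53 in the level of Rps27l was not tested.

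Rpl34 had the lowest ratio of all, and a near-identical copy was high in the same libraries. Rpl34, a large-subunit protein, was at 694 FPKM in WT, 664, 804 and 633 in VEMD2 to VEMD4, 212 in VEMD6 and 285 in VEMD8. Rpl34-ps1, which the symbol rule leaves out and which was chosen after its values were seen, was at 0 FPKM in WT, 1.17, 1.77 and 0.62 in VEMD2 to VEMD4, 168 in VEMD6 and 279 in VEMD8. WT, VEMD2, VEMD3 and VEMD4 had almost no signal on the copy, and VEMD6 and VEMD8 had much. The copy lies on chr6:71124589-71125001 of GRCm38 per RefSeq, in a single exon per GENCODE, while Rpl34 lies on chr3:130726827-130730398. Over the copy's 354 annotated bases the 2 transcripts share 352, or 99.4%. The copy reads from ATG to a stop codon over 118 codons. Stretches of 30 bases around both differences, from the GENCODE transcripts, show how little sets the 2 apart, with the differing base in capitals.
Rpl34: gaaagcacctaaatcTgcatgtggcgtgtg
Rpl34-ps1: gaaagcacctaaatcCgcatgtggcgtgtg
The lines above cover bases 117 to 146 of the copy and T132C, counted from its first base, with the base of Rpl34 first. The lines below cover bases 303 to 332 and C318G.
Rpl34: aatcgttgtgaaagtCttgaaggcacaagc
Rpl34-ps1: aatcgttgtgaaagtGttgaaggcacaagc
Within these 354 bases, a read that covers neither difference fits both genes equally, so how the authors' counting placed such reads can shift FPKM between them. Summed as values per length, the pair was at 694 FPKM in WT, 666, 806 and 633 in VEMD2 to VEMD4, 379.6 in VEMD6 and 564 in VEMD8. For this sum, ratios to WT were -0.87 in VEMD6 and -0.30 in VEMD8, and the copy held 44.3% and 49.5% of it. Both ratios lay inside the range of the other 76 genes. They were less low than the middle 50% of the 77, which ran from -1.25 to -1.05 in VEMD6 and from -0.72 to -0.50 in VEMD8. Whether the copy was transcribed or took up reads of Rpl34 cannot be told apart in gene values. Rpl31-ps12, a copy of Rpl31 with 371 of 375 bases identical, showed no such shift, with 425 FPKM in WT and 201 in VEMD6, a ratio of -1.08 beside -1.09 for Rpl31.

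**Figure D4:**
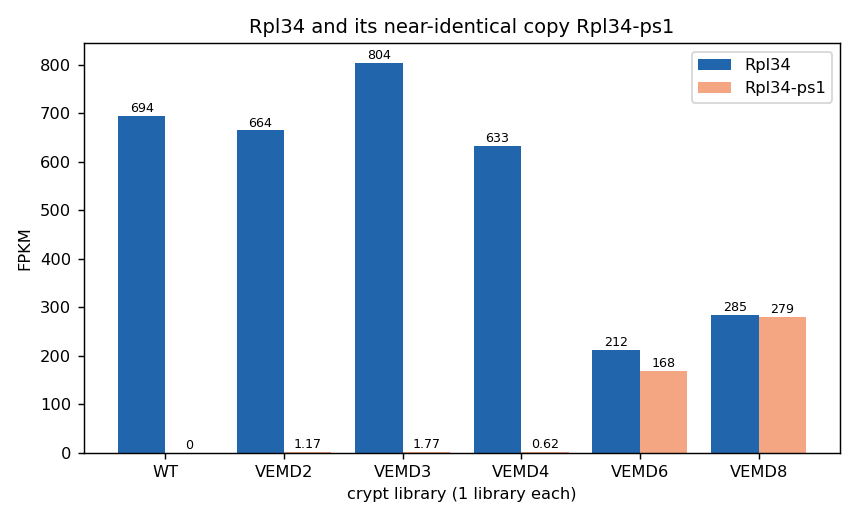
FPKM of Rpl34 and its copy Rpl34-ps1 in the 6 crypt libraries, 1 pair of bars a library with the value above each bar. The copy goes from 0 in WT to 168 in VEMD6 and 279 in VEMD8, where Rpl34 is lowest.

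Ribosomal proteins whose symbols the rule does not catch were also lowest in VEMD6. Rps3a1 was at 1307 FPKM in WT, 1059, 1166 and 976 in VEMD2 to VEMD4, 477 in VEMD6 and 751 in VEMD8, a ratio of -1.45 in VEMD6. Rack1, a scaffold on the head of the small subunit, was at 916 FPKM in WT, 869.8, 979 and 813 in VEMD2 to VEMD4, 436 in VEMD6 and 625 in VEMD8. Fau, a fusion of a ubiquitin-like protein with Rps30, was at 1154 FPKM in WT, 873, 910.5 and 855 in VEMD2 to VEMD4, 694 in VEMD6 and 715 in VEMD8. In each of these 3, VEMD6 was lowest and VEMD8 next, while the ratio of Fau (-0.73) in VEMD6 was smaller in size than the median of the 77. Rpl36al, a second form of Rpl36a, was at 526 FPKM in WT, 468, 518 and 425 in VEMD2 to VEMD4, 351 in VEMD6 and 498 in VEMD8. At -0.58 in VEMD6 and -0.08 in VEMD8 it was closer to WT than Rpl36a, at -1.26 and -0.58. Rpl22l1, the paralog of Rpl22, had ratios of -1.06 and -0.44.

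Genes that build ribosomes lay higher against WT than the ribosomal protein genes, though the medians of both as deposited ranked the knockouts in the same order. Of 87 ribosome assembly and rRNA processing genes tested, 6, 15 and 4 were at least 2-fold higher in VEMD2, VEMD3 and VEMD4. Of all genes tested, 2.44%, 6% and 7.1% were, so in VEMD4 the list's share was below that of all genes. None of the 87 was 2-fold lower in these 3 libraries, where 2.39%, 4.62% and 5.04% of all genes were. The median ratio of the 87 there was 0.59, 0.74 and 0.50. Rescaled it was 0.51, 0.61 and 0.47, beside -0.28, -0.13 and -0.28 for the ribosomal protein genes rescaled alike. In VEMD6 the list's median was -0.53 and 4 genes were 2-fold lower, or 1 rescaled, against 8.15% and 4.17% of all genes tested, and in VEMD8 it was 0.06. Mybbp1a, a nucleolar protein, was at 41 FPKM in WT, 94.6, 110.3 and 91.1 in VEMD2 to VEMD4, 36.7 in VEMD6 and 58.8 in VEMD8. Utp20, of the small-subunit processome, was at 4.98 FPKM in WT, 12.8, 15.2 and 12 in VEMD2 to VEMD4, 4.44 in VEMD6 and 7.22 in VEMD8. Heatr1, of the same complex, was at 7.81 FPKM in WT, 18.8, 21.4 and 18.2 in VEMD2 to VEMD4, 8.12 in VEMD6 and 13 in VEMD8. All 3 were over 2-fold above WT in the first 3 knockouts, highest in VEMD3, and near WT in VEMD6. Npm1, a nucleolar chaperone whose mRNA has a TOP motif, was at 544 FPKM in WT, 961, 1130.3 and 969 in VEMD2 to VEMD4, 308 in VEMD6 and 557 in VEMD8. It was high in the same 3 libraries, unlike the ribosomal protein genes, and low in VEMD6, at -0.82.

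The machinery that makes rRNA was lower in VEMD6 by less than the ribosomal protein genes. Over 20 genes of RNA polymerase I and its factors, medians were 0.24, 0.43, 0.14, -0.58 and -0.27 in the 5 libraries, and over 22 genes of 5S RNA and RNA polymerase III 0.28, 0.32, 0.16, -0.40 and -0.07. Polr1a, the largest subunit of polymerase I, was at 6.94 FPKM in WT, 15.3, 17 and 13.7 in VEMD2 to VEMD4, 6.22 in VEMD6 and 8.76 in VEMD8. VEMD2, VEMD3 and VEMD4 were above WT and VEMD6 slightly below. Taf1d, a factor at the rRNA promoter, was at 42.5 FPKM in WT, 41.7, 43 and 39.3 in VEMD2 to VEMD4, 16.1 in VEMD6 and 30.1 in VEMD8, a ratio of -1.34 in VEMD6.

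Other parts of translation showed the VEMD6 difference less. Mitochondrial ribosomal protein genes, which serve the separate ribosomes of mitochondria, had a median over 78 genes of -0.06, 0.01, -0.22, -0.56 and -0.35. Of these 78, 3 were 2-fold lower in VEMD6, against 8.15% of all genes tested. Start factors had 0.24, 0.39, 0.25, -0.34 and 0.01 over 38 genes. Of these 38, 4 were 2-fold lower in VEMD6, against the same 8.15%. Elongation and release factors had 0.23, 0.39, 0.14, -0.50 and -0.12 over 11. Genes outside these symbols whose mRNA is known to carry a TOP motif came closer to the ribosomal protein genes than these 3 lists in VEMD6 and VEMD8 and less close than the mitochondrial list in the other 3, with -0.03, 0.08, -0.14, -0.83 and -0.37 over 20 genes, some of which stand in the other lists too. Of these 20, 5 were 2-fold lower in VEMD6, against 8.15% of all genes. Eef1a1, the elongation factor that brings aminoacyl-tRNA, was at 4773 FPKM in WT, 4529.7, 4994 and 4361 in VEMD2 to VEMD4, 2589 in VEMD6 and 3689 in VEMD8. Eef1b2, its exchange factor, was at 349 FPKM in WT, 305, 335 and 302 in VEMD2 to VEMD4, 146 in VEMD6 and 224 in VEMD8. Both were lowest in VEMD6, at -0.88 and -1.25, and next in VEMD8. The signs of some of these medians turn with the scale, for mitochondrial ribosomal proteins in VEMD2 and VEMD3, elongation factors in VEMD8, other TOP genes in VEMD2, VEMD3 and VEMD4, and polymerase III in VEMD8, where they lie close to 0.

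Among 28 tested regulators of mTORC1, TOP mRNA and MYC, the median ratio stayed between -0.25 and 0.12. Myc, a transcription factor that drives ribosome production, was at 44 FPKM in WT, 47.5, 53.1 and 46.5 in VEMD2 to VEMD4, 13.2 in VEMD6 and 18.2 in VEMD8. VEMD6 and VEMD8 were the lowest libraries of Myc, as for the ribosomal protein genes, but Myc was picked after its values were seen. In VEMD6 the median of its list was -0.25, beside -0.23 for all genes tested. The part of Myc in the ribosomal protein levels was not tested. Pdcd4, which blocks the start factor Eif4a, was at 70.9 FPKM in WT, 21, 16.8 and 14 in VEMD2 to VEMD4, 7.28 in VEMD6 and 19.1 in VEMD8. Eif4ebp1, which binds the cap-binding protein until mTORC1 phosphorylates it, was at 22 FPKM in WT, 32.2, 36.1 and 48.3 in VEMD2 to VEMD4, 41 in VEMD6 and 74.3 in VEMD8. Pdcd4 was lower than WT in all 5 knockouts, and Eif4ebp1 higher, with VEMD8 highest. Gene levels do not show the activity of mTORC1.

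Lists of cell type markers differed from WT too, not all with the same course over the libraries. In VEMD2, VEMD3 and VEMD4, 18 enterocyte markers had medians of -0.71, -1.55 and -0.54, with 8, 14 and 6 that were 2-fold lower, against 2.39%, 4.62% and 5.04% of all genes tested. In VEMD6, these markers had a median ratio of 0.98, with 8 that were 2-fold higher, against 5.04% of all genes, both as deposited. Their summed level was 29222 FPKM in VEMD6, against 14272 in WT, 6348, 4707 and 10601 in VEMD2 to VEMD4 and 13794 in VEMD8. Alpi, the alkaline phosphatase of the villus, was at 214 FPKM in WT, 62, 43.7 and 148 in VEMD2 to VEMD4, 1585 in VEMD6 and 925 in VEMD8. In VEMD6, 25 proliferation genes had a median of -0.75, with 6 that were 2-fold lower, and 14 stem cell markers -1.03, with 9, against 8.15% of all genes. Rescaled to the median gene, 0 and 3 were 2-fold lower, against 4.17%. Their summed levels were 1178 and 840 FPKM in WT and 653 and 274 in VEMD6. In VEMD8 the medians were 0.13 for enterocytes, -0.26 for proliferation and -0.47 for stem cells. In VEMD2, VEMD3 and VEMD4 they were 0.35, 0.27 and 0.05 for proliferation and 0.31, 0.53 and 0.07 for stem cells. Summed levels in these libraries were 1452, 1387 and 1180 FPKM for proliferation and 787, 611 and 395 for stem cells. Cdk1, the kinase that starts mitosis, was at 34.1 FPKM in WT, 36.8, 33.6 and 30.1 in VEMD2 to VEMD4, 15 in VEMD6 and 19.9 in VEMD8. Summed Paneth cell markers were at 29421 FPKM in WT, 41745, 21337 and 8334 in VEMD2 to VEMD4, 2326 in VEMD6 and 3526 in VEMD8. Their median ratio was -1.25 in VEMD4. Goblet cell markers were at 5630 FPKM in WT, 5395, 3699 and 6212 in VEMD2 to VEMD4, 1190.5 in VEMD6 and 2003 in VEMD8. Enteroendocrine markers were at 413 FPKM in WT, 482, 767 and 411 in VEMD2 to VEMD4, 116 in VEMD6 and 41.0 in VEMD8. Of these 6 lists, Paneth markers had 2 at 0 in WT, VEMD2, VEMD4 and VEMD8 and 1 in VEMD3, enteroendocrine markers had 1 at 0 in VEMD6, and the other 4 lists had none at 0. In bulk crypts, fewer cells of a type and less RNA per cell cannot be told apart, and the part of these shifts in the ribosomal protein levels was not tested.

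**Figure D5:**
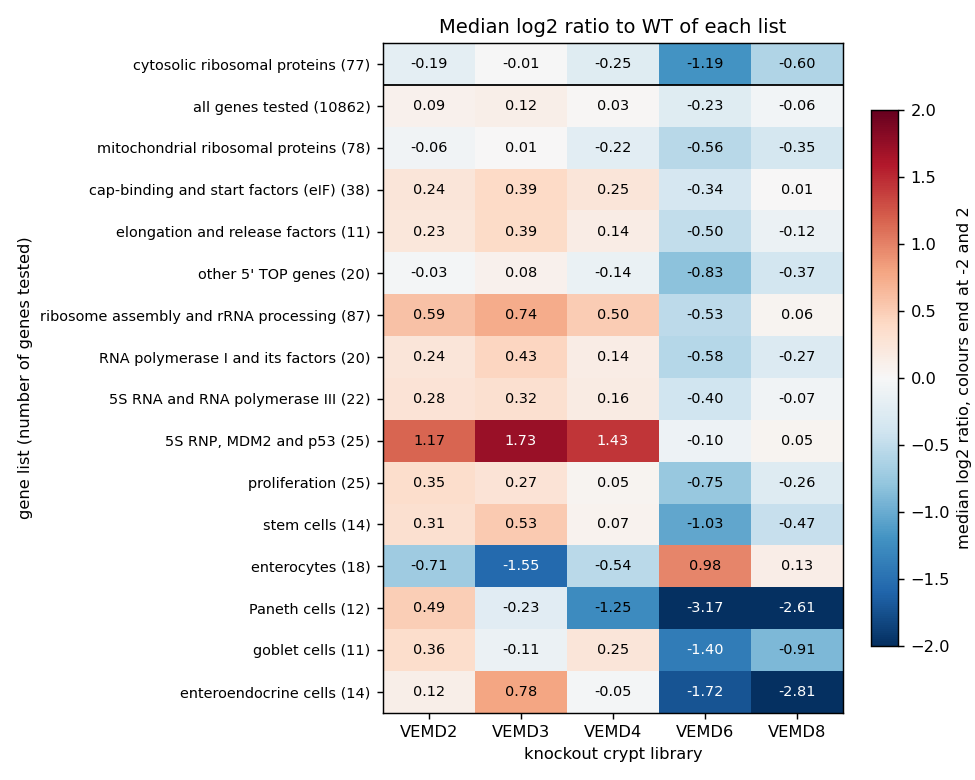
Median log2 ratio to WT of each gene list (rows, with the number of genes tested) in each knockout library (columns), as colour and number. The ribosomal protein row reads -0.19, -0.01, -0.25, -1.19 and -0.60, where the assembly row reads 0.59, 0.74, 0.50, -0.53 and 0.06.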

How the data were processed

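RNA-seq values of 6 crypt libraries, 1 per group, were used. FPKM are the deposited values, in columns headed fpkm per the file headers, and came without counts or depth. Ratios of values between 0.1 and 0.6 FPKM showed no clear steps of whole reads. HISAT2, featureCounts and edgeR, with GRCm38 and mm10, stand in the submitters' processing notes, with no versions and no word on which made this table. RefSeq's annotation of GRCm38.p6, joined on the gene identifier, gave symbols for 16916 of 16958 genes, and coordinates. RefSeq symbols that match the rule number 84, and 3 of them (Rpl32p, Rpl6l and Rps4l) were not analysed here.

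Ratios are log2((FPKM + 1)/(WT FPKM + 1)), which understates changes of low genes. Genes whose mean over the 6 libraries reached 1 FPKM were tested, and a gene was counted at 2-fold or 1.5-fold. The fold rule was tested on simulated data with known folds. Libraries were also rescaled to their median gene, to the same sum of FPKM, or to the median of other genes of at least 100 FPKM, the last chosen after seeing the data. Other pseudocounts (0.1 and 5 FPKM), no filter and fewer members were tried too. Genes named are those at least 2-fold from WT in any library, the 4 highest and lowest, the 4 of widest and narrowest range, those of set roles, and up to 4 genes of each list by size of ratio, though not all are printed; Rps29, Rpl15, Rpl28, Rps19, Rps27, Rpl31, Epcam, Myc and Rpl34-ps1 beyond their list or role were picked after their values were seen. The members and the 25 gene lists were chosen with earlier results of these data known. Python 3.11.15, pandas 2.3.3 and Biopython 1.88 were used. The repeat table and the stem cell samples were not used.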

Additional observations from a re-analysis of the deposited data

Results flagged for a closer look

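Rps27l went one way in 3 knockout libraries and the other way in 2, with log2 ratios to WT of 0.34 in VEMD2, 0.59 in VEMD3 and 0.45 in VEMD4 against -0.12 in VEMD6 and -0.17 in VEMD8. The difference between these libraries was not tested, since each group is 1 library, and the signs in VEMD6 and VEMD8 turn with the scale.

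Rpl34-ps1, a copy of Rpl34 that the choice of genes leaves out, was listed at 0 in WT and gave signal in the knockouts, with 1.17 and 1.77 FPKM in VEMD2 and VEMD3 and 168 and 279 FPKM in VEMD6 and VEMD8. In VEMD4 it was at 0.62, under the minimum of 1 FPKM used for genes tested.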

How the results depend on the processing

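No paired analysis was possible because there is 1 library in each group. For the same reason no library could be left out as a replicate. Of 138 alternatives, 98 left a count within 1.5 times or gave a median or share the same after rounding, 38 moved it further and 2 reversed a sign. The median ratio of the members in VEMD3, -0.01 as deposited, became 0.13 with the same sum of FPKM and 0.10 on the scale of other genes of at least 100 FPKM, -0.13 rescaled to the median gene and 0 with no filter. On those scales (median gene, same sum, other high genes) the medians were -0.28, -0.15 and -0.09 in VEMD2, and -0.28, -0.05 and -0.12 in VEMD4. For VEMD6 they were -0.95, -0.91 and -1.04, and for VEMD8 -0.54, -0.35 and -0.46. With no filter the median was -0.24 in VEMD4 and -1.18 in VEMD6, where a pseudocount of 5 FPKM also gave -1.18. Without Rps27l and the other copies ending in l it was -0.61 in VEMD8. The 63 genes 2-fold lower in VEMD6 were 22 when rescaled to the median gene and 13 with the same sum. In VEMD8 the 2 were 1 on each of the 3 scales and 41 at 1.5-fold, and in VEMD3 1 gene was higher at 1.5-fold. Without the 20 highest other genes the members took 14.7%, 13.7%, 15.7%, 13.7%, 7.65% and 11.2% of FPKM in WT, VEMD2, VEMD3, VEMD4, VEMD6 and VEMD8, and without the copies ending in l 12.8%, 11.7%, 14.1%, 12.5%, 7.05% and 10.0%. The looser search for a pyrimidine run gave 42.1% in place of 22.8%. These moves follow from the scaling, the threshold or the genes counted. A sum without genes of the mitochondrial genome was not run, as 0 such genes had values. Depth is unknown, so no counting error can be given.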
